A study of Mus musculus with 14 samples.

Results

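The CLIC family (chloride intracellular channel proteins) was examined in the retinal pigment epithelium (RPE), the pigmented monolayer beneath the photoreceptors, of mice in which Clic4 is deleted in that cell type. The members were Clic1, Clic3, Clic4, Clic5 and Clic6, chosen by symbol. All 5 were found among the 42687 genes of the counts table and all 5 passed the filter on low counts in each comparison. CLIC proteins carry the fold of glutathione S-transferases. They occur as soluble proteins and in association with membranes and the actin cortex. In epithelia, CLIC4 and CLIC5 are known for their place beside ezrin in apical microvilli, and the question here was whether the paralogues of Clic4 changed when Clic4 was deleted.

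RNAseq was carried out on RPE cells of 14 male C57BL/6J mice at 3 months of age, with the cells of both eyes of a mouse in 1 library. KO mice (Best1-Cre+/-; Clic4f/f) were compared within 3 sets that share no library. The WT set held 3 KO and 3 wild type mice. The Ctrl set held 2 KO and 2 Ctrl mice, which are Clic4f/f and lack Cre. The CreCtrl set held 2 KO and 2 CreCtrl mice, which are Best1-Cre+/- and carry no floxed Clic4. The Best1 promoter drives Cre in RPE cells and the choroid keeps an intact Clic4. Which exon is floxed is not given in the sources used here, and a count over the whole gene can include reads of a remaining transcript. Control genotype and set go together, so the 2 cannot be told apart.

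The deposited counts summed to between 9828293 and 32384166 per library. All 10 RPE markers were detected in every library, but their summed level was 15034 to 56237 CPM (counts scaled to the size of the library) in the 7 controls and 69837 to 80067 CPM in the 7 KO libraries. Most of this sum was Ttr (a mean of 17521 CPM in controls and 34786 CPM in KO) and Rgr (8299 and 17769 CPM). Best1 went the other way (3.34 and 1.61 CPM). Over all sets 9 of the 10 markers were called higher and 0 lower, and Best1 was not called. Markers of several other cell types were lower in KO, as were immediate-early genes, which are not markers of a cell type. The summed level of 10 fibroblast markers was 1246 to 7671 CPM in controls and 124 to 742 CPM in KO libraries, with none of the markers at 0 in any library. That of 10 endothelial markers was 158 to 790 CPM in controls and 42.6 to 166 CPM in KO, where the ranges overlapped across sets (166 CPM in KO replicate 1 of the WT set, 159 and 158 CPM in Ctrl) but not within them, and that of 12 immediate-early genes was 4906 to 15945 CPM in controls and 334 to 2297 CPM in KO. The sum of 7 pericyte and smooth muscle markers was 460 to 2084 CPM in controls and 300 to 448 CPM in KO. It was carried by Rgs5 (a mean of 899 CPM in controls and 40.2 CPM in KO), whereas Acta2 had 153 and 219 CPM, and over all sets 1 of the 7 markers (Cspg4) was called higher and 3 lower. The ranges also overlapped for myeloid markers (913 to 2689 and 776 to 2598 CPM), melanocyte and Schwann cell markers (732 to 2700 and 2197 to 2693 CPM) and photoreceptor markers (61.5 to 4649 and 401 to 2061 CPM). Over all sets 7 of the 10 myeloid markers were called lower (17.6% of all genes were) and 1, Csf1r, higher (18.5%). Their median log2 fold change was -2.33 over all sets but 0.30 against Ctrl. Csf1r held a mean of 527 CPM in controls and 752 CPM in KO. The highest myeloid sum in KO was in KO replicate 2 of the Ctrl set, and the next was 979 CPM. For a cell type marker in bulk RNA, fewer cells of the type and less RNA per cell cannot be told apart.

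Relatedness within the family was taken from the reading frames of the GENCODE M21 transcripts. The Clic4 protein of 253 residues was 75.6% identical to Clic5 (251 residues), 73.0% to the aligned stretch of Clic6 (596 residues, with a long extension before the part that aligns), 64.3% to Clic1 (241 residues) and 49.4% to Clic3 (237 residues). The genes lie apart in GRCm38. Clic4 (ENSMUSG00000037242) is on chromosome 4 from 135213969 to 135272814, minus strand. Clic1 (ENSMUSG00000007041, 35049966 to 35058749) and Clic5 (ENSMUSG00000023959, 44188584 to 44280172) are on the plus strand of chromosome 17. Clic6 (ENSMUSG00000022949) is on chromosome 16 from 92485736 to 92541243, plus strand, and Clic3 (ENSMUSG00000015093) is on chromosome 2 from 25456838 to 25458776, plus strand. No member shared an exon base with another annotated gene.

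Clic4 and Clic5, the most alike in sequence, fell together in KO libraries as described below, and the bases before their annotated starts are shown for that reason. The sequences are from RefSeq (GRCm38.p6), written 5′ to 3′ in the direction of the gene, with each GC box (GGGCGG or its reverse complement CCGCCC) in capitals. Clic4 is at chr4:135272815-135273010, minus strand, and Clic5 at chr17:44188322-44188571, plus strand.
Clic4: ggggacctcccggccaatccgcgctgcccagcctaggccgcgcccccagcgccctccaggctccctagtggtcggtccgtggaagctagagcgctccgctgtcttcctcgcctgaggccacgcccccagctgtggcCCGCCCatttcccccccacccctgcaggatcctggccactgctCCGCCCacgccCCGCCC
Clic5: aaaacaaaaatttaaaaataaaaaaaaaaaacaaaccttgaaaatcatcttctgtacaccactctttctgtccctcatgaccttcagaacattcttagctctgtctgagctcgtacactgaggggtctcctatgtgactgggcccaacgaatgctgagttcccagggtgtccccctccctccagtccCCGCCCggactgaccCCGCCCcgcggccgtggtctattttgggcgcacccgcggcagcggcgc
The 196 bases of Clic4 held 3 GC boxes and were 74.5% G or C. They are the first 196 of the 250 bases before its RefSeq start, and 23.8% of all promoters held a GC box in that window. The 250 bases of Clic5 held 2 GC boxes and were 52.8% G or C, and 32.9% of all promoters held one. TATAAA was found in neither of these genes' promoters of the RefSeq table, and 13.0% of all promoters held it. A match is a description of letters only.

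Clic4, the targeted gene, was lower in every KO library than in every control library. Its level was 226, 230 and 218 CPM in the WT mice and 33.1, 23.3 and 17.9 CPM in the KO mice of the set. It was 71.5 and 62.1 CPM in Ctrl against 9.79 and 33.9 CPM in KO, and 86.6 and 108 CPM in CreCtrl against 13.7 and 30.5 CPM in KO. The KO means were alike in the 3 sets, at 24.8 ± 7.72 CPM (SD, n = 3), 21.8 ± 17.1 CPM (SD, n = 2) and 22.1 ± 11.9 CPM (SD, n = 2), whereas the control means were 225 ± 5.89 CPM (SD, n = 3) in WT, 66.8 ± 6.62 CPM (SD, n = 2) in Ctrl and 97.1 ± 14.9 CPM (SD, n = 2) in CreCtrl. Clic4 counts thus remained in each KO library, between 150 and 878. The 3 sets of controls did not overlap with each other, and the highest was the WT group, which also had the highest fibroblast marker sums (7542 to 7671 CPM, against 1246 to 2695 CPM in the other 4 controls). The part of these markers in the Clic4 levels was not tested within groups.

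In edgeR's quasi-likelihood test, Clic4 fell by 3.32 on the log2 scale (SE 0.22, adjusted p = 3.327e-05) against WT, which is a 10.01-fold lower level. It fell by 2.16 (SE 0.36, edgeR adjusted p = 0.01324) against CreCtrl. Against Ctrl the log2 fold change was -1.61 (SE 0.58) and did not pass (edgeR adjusted p = 0.333). Leaving out KO replicate 1 of that set gave -0.98, and leaving out KO replicate 2 gave -2.77. In the CreCtrl set the same steps gave -1.66 and -2.88, and Clic4 was called in both. Over the 14 libraries with the set as a covariate, Clic4 fell by 2.43 on the log2 scale (SE 0.32, edgeR adjusted p = 1.208e-04).

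**Figure D1:**
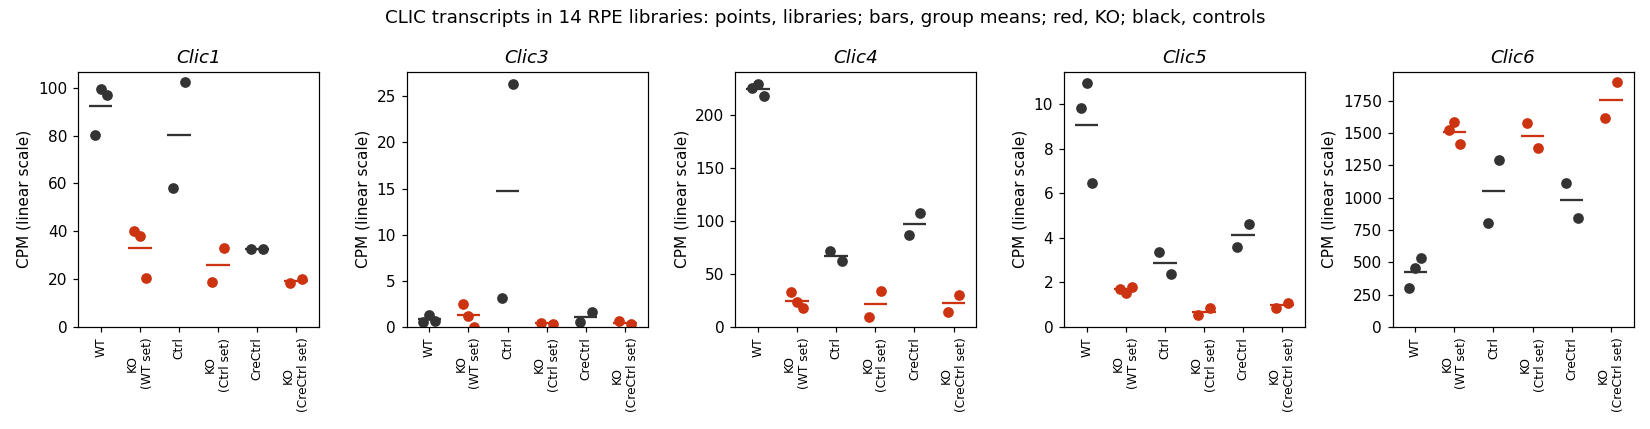
CPM of each CLIC gene (linear vertical axes, 1 panel per gene) in the 14 libraries by group, with each point a library and each bar the group mean. Clic4 and Clic5 of the KO groups (red) lie below the controls (black) of every set, Clic6 lies above them, and Clic3 is high in 1 Ctrl library (26.3 CPM).

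Among the paralogues, Clic6 was higher in KO libraries and Clic1 and Clic5 were lower. Against WT, 1 of the 5 members was called higher (16.1% of all 15428 genes tested were) and 3 were called lower (19% of all genes). Against CreCtrl, no member was called higher (3.6% of 15963 genes were) and 3 were called lower (12.2%). Against Ctrl no gene of 15287 was called by edgeR in either direction (0% higher, 0% lower), with 1846 genes at an unadjusted p under 0.05 and 1191 called by DESeq2. Over all sets, 1 member was called higher (18.5% of 17662 genes) and 3 lower (17.6%). Of all genes called over all sets, 51.3% were higher in KO with TMM normalization, 23.9% with library size alone and 1.20% with libraries scaled to the RPE markers. The median log2 fold change of the 5 members was -1.64 against WT, -1.63 against Ctrl, -1.29 against CreCtrl and -1.35 over all sets, beside -0.08, 0.01, -0.02 and -0.02 for all genes tested.

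Clic6, the member with the long extension, was the most abundant CLIC transcript in each group. Its level was 301, 453 and 530 CPM in WT and 1520, 1589 and 1417 CPM in the KO mice of the set. It was 807 and 1289 CPM in Ctrl against 1578 and 1383 CPM in KO, and 1117 and 845 CPM in CreCtrl against 1614 and 1894 CPM in KO. Every KO library was above every control library, and the gap was narrow between Ctrl replicate 2 and its KO libraries. The log2 fold change was 1.67 (SE 0.21, edgeR adjusted p = 4.423e-04) against WT, 0.50 (SE 0.32, edgeR adjusted p = 0.707) against Ctrl and 0.81 (SE 0.23, edgeR adjusted p = 0.0524) against CreCtrl. Over all sets it was 1.16 (SE 0.23, edgeR adjusted p = 0.001898). Against CreCtrl the call turned on the tool and the filter. Clic6 was called there by DESeq2 (log2 fold change 0.84, DESeq2 adjusted p = 5.026e-04). It was also called with every gene of at least 1 count kept (0.84, edgeR adjusted p = 0.00907). No other alternative that kept all libraries called it. The log2 fold change was 1.01 without CreCtrl replicate 1 and 0.59 without CreCtrl replicate 2.

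The rise of Clic6 went with that of the RPE markers. In group means, most reads of the 10 RPE markers came from Ttr and Rgr. Counted per 1000 reads of the 10 RPE markers, Clic6 had 20.1, 25.6 and 23.8 reads in WT and 21.2, 19.8 and 19.8 in the KO mice of the set. It had 17.7 and 28.2 in Ctrl against 22.6 and 19.2 in KO, and 19.9 and 17.3 in CreCtrl against 23.1 and 24.9 in KO. On this scale KO and control libraries overlapped in the WT and Ctrl sets, and in the CreCtrl set the KO libraries were above the controls. With libraries scaled to the geometric mean of the RPE markers, the direction stayed up but the log2 fold change over all sets was 0.31 (SE 0.14, edgeR adjusted p = 0.0663), and it was 0.40 against WT (edgeR adjusted p = 0.0519), 0.06 against Ctrl (edgeR adjusted p = 0.932) and 0.44 against CreCtrl (edgeR adjusted p = 0.0845). That scaling moved the median over all genes tested from -0.02 to -0.89 on the log2 scale over all sets.

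**Figure D2:**
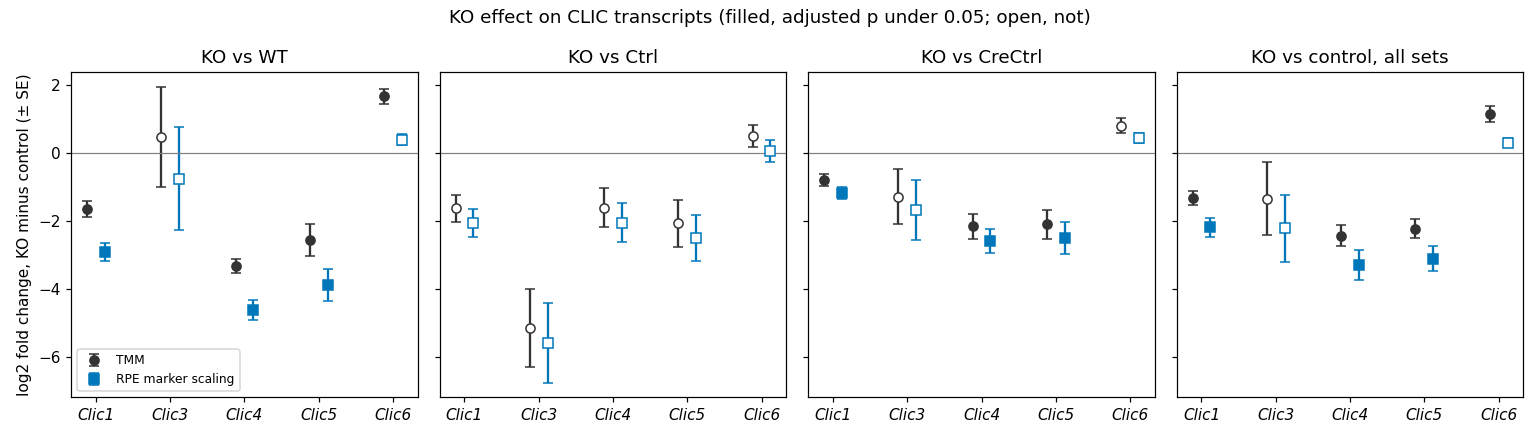
log2 fold change (KO minus control, ± SE) of the 5 CLIC genes in the 3 sets and over all sets, with TMM normalization (black circles) and with libraries scaled to the RPE markers (blue squares), filled where the adjusted p was under 0.05. Clic1, Clic4 and Clic5 are below 0 under both scalings in every panel, and Clic6 is lower under the RPE marker scaling in every panel (0.40, 0.06, 0.44 and 0.31 from left to right) and open there.

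Clic1, the member best known as a redox-sensitive protein of macrophages and many other cells, was lower in KO. Its level was 80.4, 99.3 and 97.0 CPM in WT and 39.9, 38.0 and 20.6 CPM in the KO mice of the set. It was 58.2 and 102 CPM in Ctrl against 18.7 and 33.1 CPM in KO, and 32.4 and 32.6 CPM in CreCtrl against 18.3 and 20.1 CPM in KO. Within each set the KO libraries were below the controls, but 2 KO libraries of the WT set and 1 of the Ctrl set were above the CreCtrl libraries. Clic1 fell by 1.64 on the log2 scale against WT (SE 0.24, edgeR adjusted p = 0.00103) and by 0.79 against CreCtrl (SE 0.17, edgeR adjusted p = 0.0267). The latter call was lost without KO replicate 1 (log2 fold change -0.68, edgeR adjusted p = 0.104) or KO replicate 2 (-0.88, edgeR adjusted p = 0.0773) of that set, and in 1 fit of the 14 libraries (-0.76, edgeR adjusted p = 0.197). Against Ctrl the log2 fold change was -1.63 (SE 0.41, edgeR adjusted p = 0.165, DESeq2 adjusted p = 0.00883). It was -1.17 without Ctrl replicate 2, the library with the highest Clic1, and -1.97 without Ctrl replicate 1. Over all sets Clic1 fell by 1.32 (SE 0.20, edgeR adjusted p = 4.08e-04).

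Clic5, which joins the plasma membrane to the actin core of stereocilia and podocyte foot processes, was scarce in these libraries and lower in KO. Its level was 9.85, 10.9 and 6.45 CPM in WT and 1.70, 1.54 and 1.81 CPM in the KO mice of the set. It was 3.36 and 2.38 CPM in Ctrl against 0.522 and 0.836 CPM in KO, and 3.59 and 4.64 CPM in CreCtrl against 0.868 and 1.08 CPM in KO. Every KO library was below every control library, on 8 to 31 counts per KO library and 51 to 127 per control library. Clic5 fell by 2.56 on the log2 scale against WT (SE 0.48, edgeR adjusted p = 0.003525), and its log2 fold change against CreCtrl was -2.101 (SE 0.44, edgeR adjusted p = 0.02527). The CreCtrl call was lost without CreCtrl replicate 2 (log2 fold change -1.94, edgeR adjusted p = 0.0799), KO replicate 1 (-1.91, edgeR adjusted p = 0.0599) or KO replicate 2 (-2.29, edgeR adjusted p = 0.0607), and in 1 fit of the 14 libraries (-2.07, edgeR adjusted p = 0.0526). Against Ctrl the log2 fold change was -2.06 (SE 0.69, edgeR adjusted p = 0.294). Over all sets Clic5 fell by 2.22 (SE 0.27, edgeR adjusted p = 7.449e-05).

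Clic3, a member found mainly in other epithelia and secreted by some tumour cells, was near the limit of detection except in the Ctrl mice. Its level was 0.493, 1.29 and 0.617 CPM in WT and 2.52, 1.19 and 0 CPM in the KO mice of the set, where the floor of 3 counts stands at 0.185 CPM in the library without a read. It was 3.16 and 26.3 CPM in Ctrl against 0.457 and 0.358 CPM in KO, and 0.513 and 1.65 CPM in CreCtrl against 0.620 and 0.278 CPM in KO. KO and control overlapped in the WT and CreCtrl sets, and in the Ctrl set both controls were above the KO libraries. The log2 fold change was 0.48 (SE 1.48, edgeR adjusted p = 0.843) against WT, -5.16 (SE 1.15, edgeR adjusted p = 0.139) against Ctrl, -1.29 (SE 0.81, edgeR adjusted p = 0.277) against CreCtrl and -1.35 (SE 1.07, edgeR adjusted p = 0.36) over all sets. The sign against WT turned to -0.51 without KO replicate 1 and to -0.76 under the RPE marker scaling.

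The value of Clic3 against Ctrl rested on Ctrl replicate 2, which held 708 Clic3 counts against 48 in Ctrl replicate 1. Without replicate 2 it was -2.94 (edgeR adjusted p = 0.509), and without replicate 1 it was -5.98 and was called (edgeR adjusted p = 0.00599). Markers of the ocular surface epithelium, 8 genes such as Krt12 and Krt13 listed after this library was seen to stand out, summed to 15321 CPM in Ctrl replicate 2 and 2352 CPM in Ctrl replicate 1. In the 2 KO libraries of the set they summed to 15.2 and 9.97 CPM, and in the other 5 controls to 48.6 to 1313 CPM. Their part in the levels of Clic3 and of the other members was not tested.

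A test that needs no model was also run on each member. With the labels exchanged within sets in all 720 ways, the exact two-sided permutation p was 0.00278 for Clic1, Clic4, Clic5 and Clic6, which is the smallest it can give, and 0.0806 for Clic3. That smallest p is reached whenever KO and control libraries separate fully, in the same direction, within every set. The test was run on the 5 members only, so the share of all genes that reach it is not known. These p-values are not adjusted over the 5 genes.

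Whether a member moved differently against different controls was tested in 1 fit of the 6 groups. None of the 5 was called in the differences of the KO effect between the WT and Ctrl sets (5.15% of 17662 genes were called), the WT and CreCtrl sets (1.49%) or the Ctrl and CreCtrl sets (0% of genes called). The nearest was Clic6, whose log2 fold change was 1.82 in the WT set and 0.50 in the Ctrl set in that fit, a difference of 1.32 (SE 0.36, edgeR adjusted p = 0.0508). For Clic4 the effects were -3.18 and -1.61, a difference of -1.57 (SE 0.60, edgeR adjusted p = 0.147). For Clic3 they were 0.63 and -5.16, a difference of 5.79 (SE 1.83, edgeR adjusted p = 0.0853). With every gene of at least 1 count kept, these 3 differences were called (edgeR adjusted p = 4.216e-04 for Clic6, 1.486e-05 for Clic4 and 2.03e-04 for Clic3), as were those of Clic4 and Clic6 between the WT and CreCtrl sets (adjusted p = 0.0144 and 0.0439), so these differences turned on the filter.

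Levels of different members were compared as CPM per kb of exons. Clic6 led in each group, followed by Clic1, and the ranges of these neighbours did not overlap. Mean Clic6 was 109 ± 29.8 CPM per kb in WT (SD, n = 3), 268 ± 87.0 in Ctrl and 251 ± 49.1 in CreCtrl (SD, n = 2), and it was 385 ± 22.1, 378 ± 35.3 and 448 ± 50.6 CPM per kb in the KO groups of these sets in the same order. Clic1 was 51.3 ± 5.73, 44.6 ± 17.4 and 18.1 ± 0.06 CPM per kb in WT, Ctrl and CreCtrl, and 18.3 ± 5.92, 14.4 ± 5.66 and 10.7 ± 0.72 in the KO groups. Clic4 was next in all groups except Ctrl, where its range overlapped that of Clic3. Mean Clic4 was 34.2, 10.2 and 14.8 CPM per kb in WT, Ctrl and CreCtrl and 3.77, 3.32 and 3.36 in the KO groups. Clic5 did not exceed 1.25 CPM per kb in any library, and its range overlapped that of Clic3 in WT, in the KO mice of the WT set and in CreCtrl.

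Put as shares of the summed CLIC level, Clic6 was 55.0% ± 5.85 in WT (SD, n = 3) and 94.3% ± 1.69 in the KO mice of the set. It went from 79.8% ± 2.47 in Ctrl to 95.3% ± 2.39 in KO, and from 87.7% ± 3.11 in CreCtrl to 96.9% ± 0.14 in KO (SD, n = 2 each). Clic4 was 17.8% ± 3.59 in WT and 0.917% ± 0.25 in KO, 3.27% ± 1.46 in Ctrl and 0.863% ± 0.71 in KO, and 5.32% ± 1.65 in CreCtrl and 0.709% ± 0.31 in KO. The mean level summed over the 4 paralogues was higher in KO on this scale. It was 405 against 163 CPM per kb in the WT set and 393 against 327 in the Ctrl set. In the CreCtrl set it was 459 against 270. Most of this sum was Clic6 in each group. Counted per RPE marker read, as above, Clic6 overlapped between KO and control libraries in the WT and Ctrl sets. In the CreCtrl set Clic6 was higher in KO on that count. The sum over the 4 paralogues was not put on the scale of RPE marker reads, so a rise on it was not tested. With Clic6 set aside as well, the sum of Clic1, Clic3 and Clic5 was lower, at 19.7 against 53.1, 14.9 against 59.5 and 11.2 against 19.6 CPM per kb. In the Ctrl set the libraries overlapped in the sum over the 4 paralogues, with 242 and 413 CPM per kb in Ctrl and 414 and 372 in KO, so the difference there rested on Ctrl replicate 1. No test was made on these sums.

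**Figure D3:**
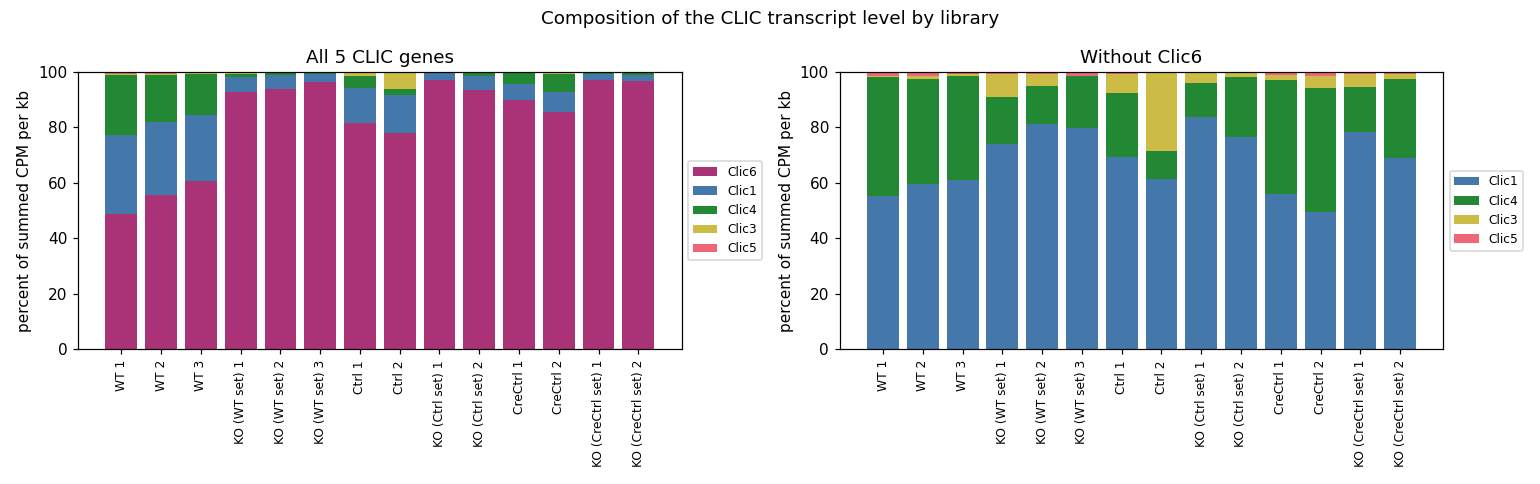
Share of each CLIC gene (percent of summed CPM per kb, linear axis) in the 14 libraries, for all 5 genes on the left and without Clic6 on the right. Clic6 takes a mean of 55.0% in WT and over 94% in each KO group, and without Clic6 the Clic1 share is a mean of 58.6% in WT and 78.3% in the KO mice of that set.

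The other CLIC genes were also counted per 1000 RPE marker reads. Clic1 had 4.35 to 5.62 in WT and 0.288 to 0.556 in the KO mice of the set, and 0.577 and 0.668 in CreCtrl against 0.262 and 0.265 in KO. Clic4 had 9.79 to 15.02 in WT and 0.250 to 0.462 in KO, and 1.54 and 2.21 in CreCtrl against 0.196 and 0.402 in KO. Clic1 and Clic4 were thus lower in KO on this scale too. Under the RPE marker scaling Clic1 fell by 2.19 and Clic5 by 3.11 on the log2 scale over all sets (edgeR adjusted p = 6.307e-05 and 2.498e-05). That scaling called 57% of all 17662 genes lower, with a median log2 fold change of -0.89 over all genes tested.

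With the mean log2 CPM of the 10 fibroblast markers as a further covariate over all sets, none of the 17662 genes was called by edgeR (520 were at an unadjusted p under 0.05). In that fit the log2 fold change was 0.46 (SE 0.55) for Clic4, -0.58 (SE 0.63) for Clic1, -1.27 (SE 0.91) for Clic5 and 0.07 (SE 0.65) for Clic6, against SEs of 0.20 to 0.32 without the covariate. The fibroblast marker sums of KO and control libraries did not overlap, so the covariate and the genotype largely go together. The KO library with the lowest Clic4 (9.79 CPM) had the lowest fibroblast marker sum, 124 CPM, and the other 6 KO libraries had 256 to 742 CPM. The KO library with the highest Clic4 (33.9 CPM, KO replicate 2 of the Ctrl set) had a sum of 315 CPM. The highest sum, 742 CPM, was in KO replicate 1 of the WT set, with 33.1 CPM of Clic4. A link between these markers and Clic4 among the KO libraries was not tested.

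**Figure D4:**
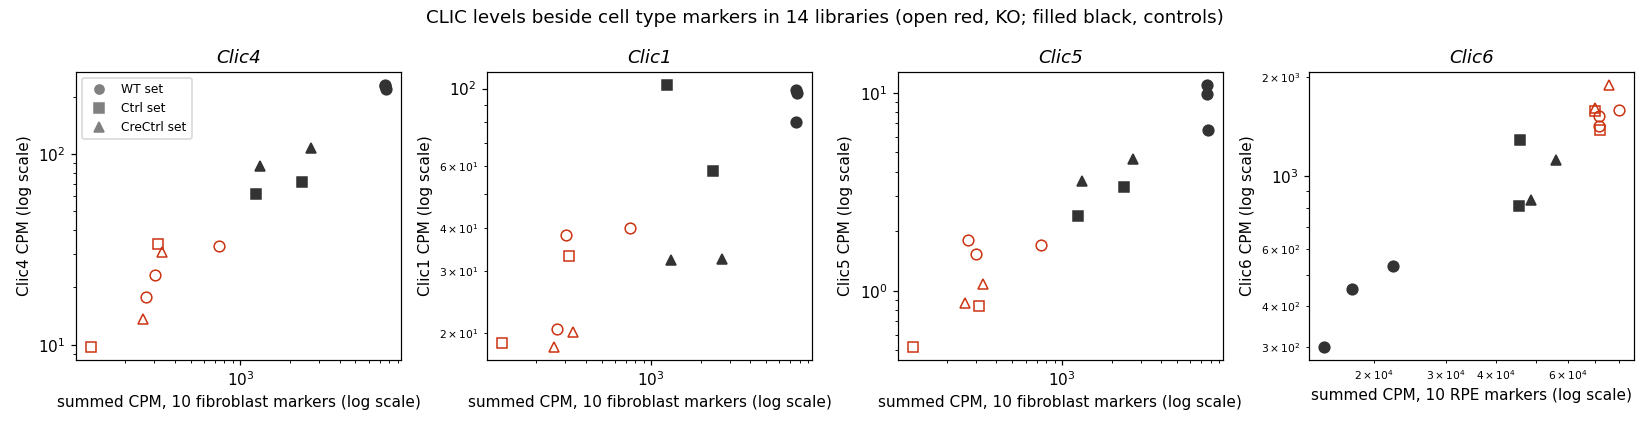
CPM of Clic4, Clic1 and Clic5 against the summed CPM of 10 fibroblast markers, and of Clic6 against that of 10 RPE markers (all axes log), with 1 symbol per library, open red for KO and filled black for controls. KO libraries (124 to 742 CPM of fibroblast markers) lie to the left of the controls (1246 to 7671 CPM) in the first 3 panels and to the right in the Clic6 panel.

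Over the 14 libraries, the log2 CPM of the members gave Pearson correlations of 0.95 between Clic4 and Clic5, 0.82 between Clic4 and Clic1, and -0.88 between Clic4 and Clic6. These points share the split into KO and control and into sets, so the values describe that split. The genes most like Clic4 among 17661 were Adamtsl3 (r = 0.990), Arhgap31 (0.987), Nrp1 (0.987), Vill (0.986) and Lsp1 (0.985). Those most like Clic5 were Crip2 (r = 0.983), Casp12 (0.979), Pear1 (0.979), C1qtnf7 (0.979) and Col16a1 (0.977), and those most like Clic1 were Tmsb4x (r = 0.973), Ckap4 (0.970), Cdc42ep5 (0.970), Ly6e (0.969) and Psmb8 (0.965). For Clic6 they were Bcat1 (r = 0.988), Epas1 (0.986), Osbp2 (0.985), Tmem98 (0.985) and Got1 (0.984). For Clic3 they were Dmrta2 (r = 0.973), Piga (0.900), AA986860 (0.896), Net1 (0.894) and Pak6 (0.892). The part in these values of the high level in Ctrl replicate 2, or of the KO library without a Clic3 read, was not tested.

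Of 22 genes listed as partners of CLIC proteins, 21 were tested. Against WT 2 were called higher (16.1% of all genes were) and 11 lower (19% of all genes), and against CreCtrl 0 (3.6%) and 4 (12.2%). Over all sets 4 were called higher (18.5% of all genes) and 6 lower (17.6%), with a median log2 fold change of -0.13 beside -0.02 for all genes. By set, the median of the partners was -0.48 against WT, -0.22 against Ctrl and 0.30 against CreCtrl. Mmp14, a membrane-anchored matrix metalloproteinase, fell by 1.96 on the log2 scale over all sets (SE 0.27, edgeR adjusted p = 1.939e-04). Tgm2, a transglutaminase, fell by 3.25 (SE 0.49, edgeR adjusted p = 3.837e-04), and Podxl, a sialomucin linked to ezrin, fell by 1.44 (SE 0.26, edgeR adjusted p = 0.00124). Slc9a3r1, the scaffold that binds ezrin in microvilli, rose by 1.03 (SE 0.21, edgeR adjusted p = 0.002485). Each of these named genes was called against WT. Against CreCtrl, Mmp14 and Tgm2 were called, whereas Podxl (log2 fold change -1.21, edgeR adjusted p = 0.0665) and Slc9a3r1 (0.30, edgeR adjusted p = 0.313) were not. Under the RPE marker scaling the log2 fold change of Slc9a3r1 over all sets was 0.19 (edgeR adjusted p = 0.235). With that scaling 0 of the 21 were called higher (0.691% of all genes) and 18 lower (57% of all genes).

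Of 16 genes that share the glutathione S-transferase fold, 3 were called higher (18.5% of all genes were) and 3 lower (17.6%) over all sets, with a median log2 fold change of 0.05 beside -0.02 for all genes. Against WT 4 of the 14 tested were called higher (16.1% of all genes) and 4 lower (19%). The counts over all sets were near the shares of all genes. Hpgds, the haematopoietic prostaglandin D synthase, fell by 2.95 on the log2 scale (SE 0.44, edgeR adjusted p = 3.024e-04). Gstm2 fell by 1.27 (SE 0.18, edgeR adjusted p = 2.493e-04) and Gstm1 by 1.02 (SE 0.22, edgeR adjusted p = 0.002888), whereas Gstm5 rose by 0.88 (SE 0.17, edgeR adjusted p = 0.001756). Each of these named genes was called against WT. Against CreCtrl, Hpgds and Gstm1 were called, whereas Gstm2 (log2 fold change -0.62, edgeR adjusted p = 0.0805) and Gstm5 (0.50, edgeR adjusted p = 0.098) were not. The Gstm genes are close copies of one another whose reads the counting could split. Under the RPE marker scaling the log2 fold change of Gstm5 was 0.03 (edgeR adjusted p = 0.837), and 0 of the 16 were called higher (0.691% of all genes) and 8 lower (57% of all genes).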

How the data were processed

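RPE cells were loosened with enzymes, and poly(A) RNA of each mouse was sequenced from stranded libraries on an Illumina NovaSeq. Reads were aligned by the authors with STAR 2.5.2 (GRCm38), and the deposited table holds raw counts per Ensembl gene, without normalization. The submitters' processing notes also name HTSeq 0.11.2, Cufflinks 2.1.1 and bcl2fastq 2.19. The strand setting and annotation release of the counting are not given in the sources used here. All columns were matched to a library, and GENCODE M21 named 42329 of the 42687 genes. KO libraries were put in their sets by how their titles are written.

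KO and control libraries were compared with edgeR (quasi-likelihood test, TMM, filterByExpr) and Benjamini-Hochberg adjustment over all genes tested (called at an adjusted p under 0.05), within each set and over all sets with the set as a covariate. SEs were derived from the F statistic. DESeq2, the authors' tool, was an alternative. CPM used TMM factors over the 14 libraries, and log2 CPM a prior count of 2. CPM per kb used the merged exons of GENCODE M21. Proteins were translated from the longest reading frame and aligned globally (BLOSUM62, gap scores -11 and -1). The floor of 3 counts covers counting error only, whereas SDs are between libraries. Promoter bases were taken from the RefSeq table, up to the GENCODE start. Clic6 was named only, and for Clic1 no window before the start was shown.

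The members and lists (CLIC partners, glutathione S-transferase fold, cell type markers) were chosen with earlier results of these data known, and the ocular surface list was added after Ctrl replicate 2 had been seen to stand apart. Genes were named by a rule: the 5 CLIC genes, up to 4 called genes per list with the lowest adjusted p over all sets, and for each CLIC gene the 5 genes of highest correlation. The alternatives were RLE factors, library size alone, scaling to 10 RPE markers, no filter, DESeq2, each library left out, a replicate block, 1 fit of 14 libraries, a fibroblast covariate and the longest transcript as length. The scripts were tested on simulated data. The versions used were edgeR 4.0.16 and DESeq2 1.42.0 in R 4.3.3, and biopython 1.88, pandas 2.3.3 and matplotlib 3.10.9 in Python 3.11.15.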

Additional observations from a re-analysis of the deposited data

How the results depend on the processing

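Of the fold changes of Clic1, Clic4, Clic5 and Clic6, every one kept its direction under every alternative, except Clic4 over all sets with the fibroblast covariate (log2 fold change 0.46). With that covariate Clic1 (-0.58), Clic5 (-1.27) and Clic6 (0.066) lost their calls and no gene was called (0, against 6388). Scaling to the RPE markers ended the Clic6 calls against WT (0.40) and over all sets (0.31), turned Clic3 against WT (-0.76), and called 10435 genes against WT and 10190 over all sets, in place of 5419 and 6388. The share of calls that were higher was then 1.95% and 1.20%, against 45.9% and 51.3%. With library size alone it was 30.3% against WT, 7.36% against CreCtrl (22.7% with TMM) and 23.9% over all sets.

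Against Ctrl, where the main test called no gene, 1658 genes were called with every gene of at least 1 count, 1191 by DESeq2, 113 with the replicate block and 648 in 1 fit of the 14 libraries. Clic1 (-1.65), Clic3 (-5.18) and Clic4 (-1.63) were called with every gene of at least 1 count, Clic1 (-1.63) and Clic3 (-5.19) by DESeq2, and Clic1 (-1.63) in the fit of 14 libraries. Against CreCtrl, 2529 genes became 4793 without the filter (Clic6 called, 0.84), 3981 by DESeq2 (Clic6 called, 0.84), 3824 with the replicate block and 704 in the fit of 14 libraries, where Clic1 (-0.76) and Clic5 (-2.07) lost their calls. The share of higher calls against CreCtrl was 38.8% without the filter, 41.3% by DESeq2 and 2.55% under the RPE marker scaling.

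The replicate block turned Clic3 against WT (-0.51) and changed no other call of a member. Whether the numbers pair the samples could not be decided. Same-numbered deviations correlated at -0.02, 0.04 and 0.13 among the WT and KO mice, and differently numbered ones at -0.11 to 0.06. The same-numbered value was 0.00069 with Ctrl and 0.13 with CreCtrl. In these sets the deviations within a group mirror each other, so each set gives only that value with either sign.

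For the difference of the KO effect between the WT and Ctrl sets, 909 genes became 596 with RLE factors and 548 with library size alone, where Clic1 turned (0.14 to -0.011 and -0.15). With every gene of at least 1 count they were 2262, with Clic3 (5.81), Clic4 (-1.54) and Clic6 (1.35) called. Between the WT and CreCtrl sets 264 became 1102, with Clic4 (-1.07) and Clic6 (0.97) called. Between the Ctrl and CreCtrl sets 0 became 883, and Clic5 turned (0.0084 to -0.030).

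With the longest transcript as length, the Clic4 share was 23.8% in WT, 4.79% in Ctrl, 7.82% in CreCtrl, 1.39% in KO of the WT set and 1.08% in KO of the CreCtrl set, and the Clic6 share was 48.1% in WT, 76.5% in Ctrl, 84.3% in CreCtrl and 96.1% in KO of the CreCtrl set. Causes of these shifts were not tested.

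With 1 library left out, the log2 fold change of Clic3 against WT ranged from -0.51 to 1.17 and against Ctrl from -5.98 to -2.94. That of Clic4 ranged from -2.77 to -0.98 against Ctrl and from -2.88 to -1.66 against CreCtrl. Against Ctrl that of Clic1 ranged from -2.10 to -1.17, Clic5 from -2.44 to -1.77 and Clic6 from 0.21 to 0.87. Against CreCtrl that of Clic1 ranged from -0.88 to -0.68, Clic5 from -2.29 to -1.91 and Clic6 from 0.59 to 1.01. Genes called ranged from 0 to 512 against Ctrl (512 without Ctrl replicate 1 and 26 without Ctrl replicate 2) and from 1147 to 5157 against CreCtrl (5157 without CreCtrl replicate 1, 1147 without CreCtrl replicate 2 and 1279 without KO replicate 2). With 1 library left in a group, that library was assumed to vary like the others. Clic3 and Clic5 rest on few reads, which limits their precision.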
